A study of Mus musculus with 34 samples.

Results

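The enzymes that write, copy and remove DNA methylation were examined in J1 cells, a mouse embryonic stem cell line, in which LIF had been withdrawn with or without Royalactin. The 10 genes were Dnmt1, Dnmt3a, Dnmt3b, Dnmt3l, Uhrf1, Uhrf2, Tet1, Tet2, Tet3 and Tdg. They were chosen by name, as the rows of the deposited table with exactly these symbols, out of 23366 gene symbols in all. Earlier results of these data were known when the choice was made. All 10 averaged at least 10 normalized counts across the 4 libraries, the limit for testing that 12993 genes passed. RNA-seq was available for 2 libraries of cells kept in serum/-LIF and 2 of cells kept in serum/-LIF + Royalactin, the latter with 0.5 mg/ml of purified Royalactin, the main protein of royal jelly. Both conditions shared serum, gelatin-coated plates and the absence of LIF, the cytokine that holds such cells undifferentiated in serum. The sample labels give passage 40 for these cells, whereas the study's text gives an earlier passage for its RNA-seq. Serum/+LIF libraries were not analysed here.

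DNA methylation in mammals is written on cytosines of CpG sites. Dnmt1 copies the pattern onto the new strand after replication, and Uhrf1 brings it there by binding half-methylated DNA. Dnmt3a and Dnmt3b place methyl groups on sites that had none, and Dnmt3l, which has no catalytic activity of its own, stimulates them. The TET enzymes oxidize 5-methylcytosine, and Tdg, a thymine DNA glycosylase, cuts out the more oxidized forms so that base excision repair can restore cytosine. Mouse embryonic stem cells are known for high levels of both arms, with Tet1 and Tet2 rather than Tet3, and for a genome that loses much of its methylation in the ground state.

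Each library held 14737796 to 17597818 reads on genes, of which the ribosomal precursor Rn45s took 9.08% to 46.6%, leaving 7878527 to 15999458. Normalized counts are reads divided by one size factor per library, so that a read was worth 0.688 to 1.34 normalized counts. Across tested genes the replicates differed by a median absolute log2 value of 0.57 in serum/-LIF and 0.39 with Royalactin, beside 0.40 for the difference of condition means. The 10 markers of embryonic stem cells summed to 20967 and 23951 normalized counts in serum/-LIF and to 27990 and 30363 with Royalactin, and none was at 0 in both libraries of a condition. Of these, 7 were higher and 1 was lower in both Royalactin libraries, where 19.7% and 18.9% of all tested genes were. By the limma test described below, 5 of the 10 rose with a Benjamini-Hochberg adjusted p under 0.05 and 0 fell. Of all tested genes, 0.331% and 0.162% did so. The 6 markers of formative and primed epiblast summed to 2766 and 2496 against 1610 and 1339, with 0 higher and 4 lower in both Royalactin libraries. By the same test and adjustment, 0 of the 6 rose and 1 fell. The 12 S phase genes summed to 37886 and 38978 against 39956 and 46125, with 5 higher and 0 lower in both. The shares of 19.7% and 18.9% are also the scale for the epiblast and S phase lists. The 10 fibroblast markers summed to 217 and 284 against 120 and 69.5, with 0 higher and 4 lower in both. Postn, Pdgfrb and Prrx1 were at 0 in all 4 libraries, and Lum and Dcn in both Royalactin libraries. The 8 primitive endoderm markers summed to 947 and 447 against 1105 and 636. Of them 2 were higher and 1 was lower in both, and Gata6 was at 0 in both serum/-LIF libraries. Only 3 of the fibroblast and 5 of the primitive endoderm markers averaged enough counts to be tested, so the shares of tested genes do not apply to them. No tested gene of the S phase, fibroblast or primitive endoderm lists passed the adjustment. The part of these lists in the values that follow was not tested, and in bulk RNA fewer cells of a type and less RNA per cell cannot be told apart.

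Fold changes are differences of log2(normalized count + 1), serum/-LIF + Royalactin minus serum/-LIF, which understate the change of weakly expressed genes. They were tested with limma over all 12993 genes. Tet2 was the member that rose with an adjusted p under 0.05 (Benjamini-Hochberg), 1 of 10 where 0.331% of all tested genes rose so. In either direction 0.493% of all tested genes passed. The study's limits were a p of 0.05 and a 2-fold change, with DESeq as the test and no adjustment named. Here they were read as an unadjusted p under 0.05 and applied to the limma test. The calls are thus not the study's own. Tet1, Tet2 and Dnmt3l met them, 3 of 10 against 7.13% of all tested genes. All 3 rose, as 3.52% of all tested genes did by these limits. Both Royalactin libraries lay above both serum/-LIF libraries for 6 members (Dnmt1, Dnmt3a, Dnmt3l, Uhrf1, Tet1 and Tet2), where 19.7% of tested genes did so, and below them for Dnmt3b alone, where 18.9% did so. Together these are 7 of 10, against 38.6% of tested genes, and the libraries of Uhrf2, Tet3 and Tdg overlapped. Because earlier results were known when the members were chosen, these shares are given for scale and are no test of the set. The median log2 fold change of the 10 was 0.34, beside -0.01 over all tested genes. It was 0.55 without Tdg, whose counts rest on few reads and whose log2 fold change of -1.43 was the lowest.

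**Figure D1:**
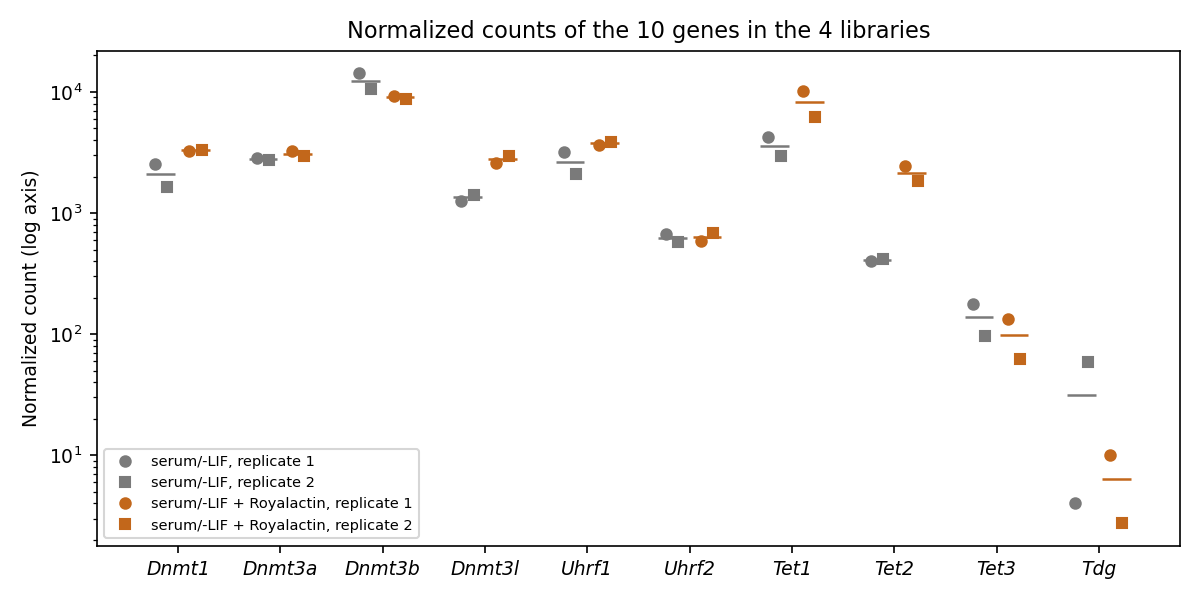
Normalized counts on a log axis of the 10 genes (x axis) in the 4 libraries, with grey for serum/-LIF, orange for serum/-LIF + Royalactin, circles for replicate 1, squares for replicate 2 and a line at each mean. The Tet2 points are the most widely separated by condition, at 401 and 420 against 2461 and 1847, and the Tdg points range from 2.75 to 59.0.

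Among the TET enzymes, Tet2 (chr3:133126643-133207354 of mm9, minus strand, with no other annotated gene on its exons) had 401 and 420 normalized counts in serum/-LIF and 2461 and 1847 with Royalactin. The conditions were far apart, while the serum/-LIF replicates differed by 0.07 and the Royalactin replicates by 0.41 on the log2 scale. The means were 411 ± 13.5 and 2154 ± 434 (SD, n = 2). Tet2 had a log2 fold change of 2.37, which is 5.18-fold, with a 95% confidence interval of 1.71 to 3.04 (Benjamini-Hochberg adjusted p = 0.00333 by limma). By p-value it ranked 10 among the 12993 genes, and by size of rise 281. Without serum/-LIF replicate 1, serum/-LIF replicate 2, Royalactin replicate 1 or Royalactin replicate 2 the log2 fold change was 2.34, 2.41, 2.17 and 2.58, and the adjusted p was 0.166, 0.269, 1 and 0.975, in fits where no gene of the table passed 0.05. It was 0.213 without the trend of the variance, where again no gene passed.

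Tet1 (chr10:62267318-62361866, minus strand), the most abundant TET gene in these cells, had 4229 and 2944 normalized counts in serum/-LIF and 10219 and 6179 with Royalactin. Royalactin replicate 2 was nearer to the serum/-LIF libraries than replicate 1, yet the conditions did not overlap. Its log2 fold change was 1.17 with a 95% confidence interval of 0.44 to 1.90, which did not pass the adjustment (Benjamini-Hochberg adjusted p = 0.21 by limma). With a correction for GC content and exon length the adjusted p from limma was 0.00918. Without Royalactin replicate 1 the log2 fold change was 0.81 and the gene no longer met the study's limits, nor did it without serum/-LIF replicate 2 (0.91) or without the trend of the variance.

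Tet3 (chr6:83312367-83391672, minus strand), the TET enzyme of the oocyte and zygote, was the weakest of the TET genes, with 178 and 97.3 normalized counts in serum/-LIF and 133 and 62.0 with Royalactin, from 90 to 133 reads per library. The conditions overlapped, and in each of them replicate 1 was above replicate 2. The log2 fold change was -0.53, with a 95% confidence interval of -1.79 to 0.73 (Benjamini-Hochberg adjusted p = 0.834 by limma).

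**Figure D2:**
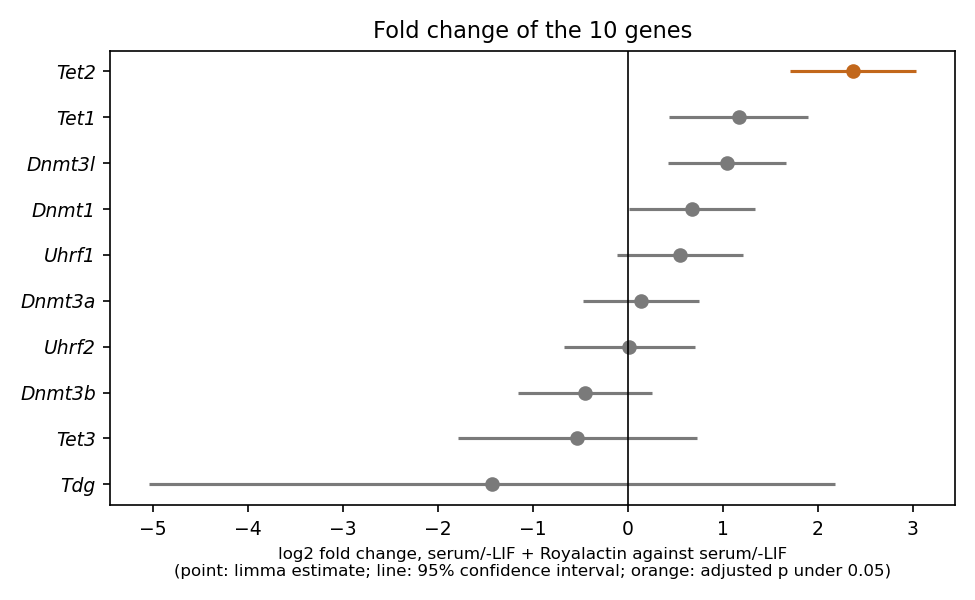
Log2 fold change of each gene, serum/-LIF + Royalactin against serum/-LIF (x axis), ordered by size, with the limma estimate as a point and its 95% confidence interval as a line. The intervals of Tet2, Tet1, Dnmt3l and Dnmt1 lie above 0, and that of Tdg runs from -5.04 to 2.18.

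Ratios of normalized count + 1 were taken within each library, where the size factor matters little except at low counts. The log2 ratio of Tet2 to Tet3 was 1.17 and 2.10 in serum/-LIF and 4.20 and 4.88 with Royalactin, a difference of 2.90, which is 7.49-fold. The log2 ratio of Tet1 to Tet3 was 4.56 and 4.90 in serum/-LIF and 6.26 and 6.62 with Royalactin. Relative to Tet2, Tet1 was lower with Royalactin, with a log2 ratio of 3.39 and 2.81 in serum/-LIF and of 2.05 and 1.74 with Royalactin. None of these ratios overlapped between the conditions. They are descriptions, since an exact permutation test of 2 libraries against 2 cannot give a p below 0.33.

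Levels of different genes were compared as normalized counts per kilobase of annotated exon. Of the summed TET level per kilobase, Tet1 made up 82.8% and 78.6% in serum/-LIF and 71.3% and 67.1% with Royalactin. The share of Tet2 was 12.6% and 17.9% in serum/-LIF and 27.5% and 32.0% with Royalactin, and that of Tet3 was 4.62% and 3.45% against 1.23% and 0.892%. The sum itself was 347 and 255 normalized counts per kilobase in serum/-LIF and 974 and 626 with Royalactin. Divided by the summed level of the catalytic methyltransferases Dnmt1, Dnmt3a and Dnmt3b, this gave a ratio of 0.101 and 0.0998 in serum/-LIF and 0.371 and 0.247 with Royalactin. With the longest transcript as length the ratio was 0.0868 and 0.0852 against 0.321 and 0.214. These shares and the ratio were chosen after the values of the members had been seen.

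**Figure D3:**
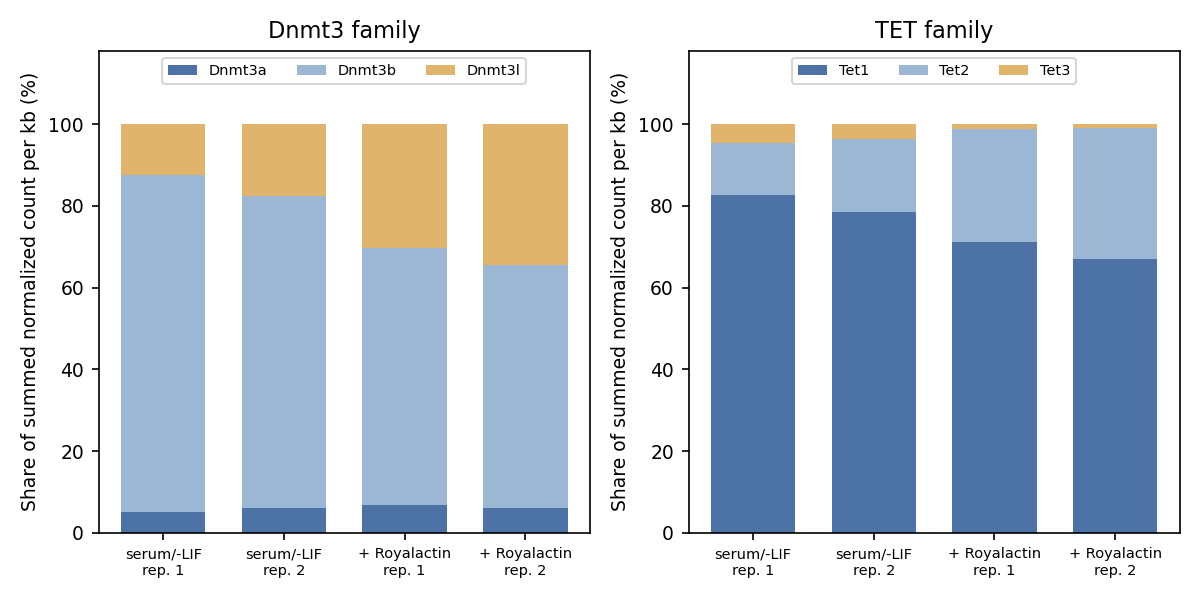
Share of each gene in the summed normalized count per kilobase of exon of its family (y axis, percent) in each library (x axis), for the Dnmt3 genes on the left and the TET genes on the right. Dnmt3l takes 12.5% and 17.5% of its family in serum/-LIF and 30.4% and 34.3% with Royalactin, and Tet2 12.6% and 17.9% against 27.5% and 32.0%.

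The promoters of the members with a 2-fold rise are shown because the factors of the pathway act on CpG sites. For each, the 250 bases before the RefSeq start are given on the strand of the gene (GRCm38.p6, Tet2 at chr3:133544391-133544640, Tet1 at chr10:62887325-62887574 and Dnmt3l, the first of 3 starts, at chr10:78042037-78042286), with CpG sites in capitals.
Tet2: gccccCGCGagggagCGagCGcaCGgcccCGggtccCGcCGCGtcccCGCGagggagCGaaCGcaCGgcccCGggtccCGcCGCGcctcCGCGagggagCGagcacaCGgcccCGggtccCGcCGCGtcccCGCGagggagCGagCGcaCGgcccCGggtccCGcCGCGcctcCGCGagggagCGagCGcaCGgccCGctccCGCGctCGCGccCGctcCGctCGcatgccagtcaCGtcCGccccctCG
Tet1: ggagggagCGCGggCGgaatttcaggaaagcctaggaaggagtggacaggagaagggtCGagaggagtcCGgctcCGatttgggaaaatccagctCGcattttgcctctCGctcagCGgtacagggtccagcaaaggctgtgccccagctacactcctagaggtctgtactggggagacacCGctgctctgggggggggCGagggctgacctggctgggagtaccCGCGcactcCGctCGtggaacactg
Dnmt3l: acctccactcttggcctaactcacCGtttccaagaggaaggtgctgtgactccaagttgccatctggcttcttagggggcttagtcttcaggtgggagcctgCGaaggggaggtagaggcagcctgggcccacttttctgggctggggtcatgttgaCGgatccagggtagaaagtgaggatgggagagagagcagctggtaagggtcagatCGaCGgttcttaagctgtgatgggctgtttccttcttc
These stretches hold 51, 15 and 5 CpG sites. Which of its 3 starts Dnmt3l used in these cells was not tested. In windows of 250 bases before to 50 after the start, Tet2 had 57 CpG sites, more than 99.8% of 32851 windows in the RefSeq table, Tet1 had 17 (more than 68.6%), and the starts of Dnmt3l had 6, 4 and 3 (more than 43.6%, 31.4% and 23.3%). The median was 7 over all windows and 22 over the 17 windows of the 10 genes, some of which overlap. The 3 genes that met the study's limits thus differed widely in CpG density. Letters of a STAT site (TTCNNNGAA, which reads the same on both strands) were found in 2 of the 17 windows, the second start of Dnmt3l and that of Tdg, against 8.3% of all windows. Those of an Esrrb site (AAGGTCA on either strand) were found in 0 of 17, against 4.72% of all windows, and those of an E2F site (TTCCCGC on either strand) in 1, a start of Uhrf1, against 4.6%. Those of a KLF site (CCACCC on either strand) were found in 7 of 17, against 31.5%. No letters of these motifs were in the Tet1 or Tet2 window.

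Of the de novo methyltransferases, Dnmt3b (chr2:153475186-153513466, plus strand) was the most abundant member per kilobase in both conditions, with 14267 and 10581 normalized counts in serum/-LIF and 9238 and 8801 with Royalactin. It was the single member lower in both Royalactin libraries. Its log2 fold change of -0.45 had a 95% confidence interval of -1.15 to 0.26 and did not pass (Benjamini-Hochberg adjusted p = 0.735 by limma). With the correction for GC content and exon length it was -0.56 and did not pass either (limma adjusted p = 0.23). With the replicate number as a block as well, a fit that leans on variance pooled over genes, the limma adjusted p was 0.0529. The serum/-LIF replicates alone differed by 0.43 on the log2 scale, and the fold change was -0.23 without replicate 1 and -0.66 without replicate 2. Of its 75-base coding tiles, 15.6% matched a second place with up to 2 mismatches, the pseudogene Gm14490 of the annotation at chr2:153539245-153555664, the locus of the germline methyltransferase Dnmt3c. One such stretch shows how alike they are, Dnmt3b at chr2:153497951-153498025 and the second place at chr2:153540690-153540764 (mm9, plus strand), with the bases that differ in capitals.
Dnmt3b: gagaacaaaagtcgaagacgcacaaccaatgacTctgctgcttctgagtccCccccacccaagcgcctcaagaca
Second place: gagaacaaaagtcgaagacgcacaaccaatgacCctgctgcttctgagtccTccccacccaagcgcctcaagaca
How reads with more than one match were counted is not given in the sources used here, so the values of Dnmt3b are uncertain to that extent.

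Dnmt3a (chr12:3806007-3914443, plus strand) had 2863 and 2762 normalized counts in serum/-LIF and 3229 and 2967 with Royalactin. All 4 libraries lay close together, although the Royalactin values were the higher. With Royalactin it was 0.14 higher on the log2 scale, with a 95% confidence interval of -0.47 to 0.75 (Benjamini-Hochberg adjusted p = 0.921 by limma). On 133 of its exon bases lies a transcript of the opposite strand, Gm10485, and whether counting used the strand is not given in the sources used here.

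Dnmt3l (chr10:77504692-77526367, plus strand) had 1269 and 1420 normalized counts in serum/-LIF and 2610 and 2967 with Royalactin. Each Royalactin library stood well above both serum/-LIF libraries, and the replicates differed by 0.16 and 0.18 on the log2 scale. Dnmt3l thus had a log2 fold change of 1.05, a 2.07-fold difference, with a 95% confidence interval of 0.43 to 1.67. It did not pass the adjustment (Benjamini-Hochberg adjusted p = 0.18 by limma) and did with the correction for GC content and exon length (limma adjusted p = 0.0229). Without serum/-LIF replicate 1 or Royalactin replicate 2 the log2 fold change was 0.97 and 0.96, just under the 2-fold limit. Of its exon bases, 67 overlap Aire on the opposite strand.

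The balance of the Dnmt3 genes differed between the conditions in each library. The log2 ratio of Dnmt3l to Dnmt3b was -3.49 and -2.90 in serum/-LIF and -1.82 and -1.57 with Royalactin, a 2.82-fold difference. That of Dnmt3l to Dnmt3a was -1.17 and -0.96 against -0.31 and 0.00, and that of Dnmt3a to Dnmt3b -2.32 and -1.94 against -1.52 and -1.57. In the summed Dnmt3 level per kilobase the share of Dnmt3b was 82.4% and 76.4% in serum/-LIF and 62.9% and 59.5% with Royalactin, whereas Dnmt3l had 12.5% and 17.5% against 30.4% and 34.3%. Dnmt3a kept to between 5.07% and 6.74%. The sum did not separate the conditions, at 3391 and 2714 normalized counts per kilobase in serum/-LIF and 2877 and 2895 with Royalactin. The shares depend on the length used. With the longest transcript Dnmt3b had 76.9% and 69.7% in serum/-LIF and 54.8% and 51.3% with Royalactin. Dnmt3l then had 16.2% and 22.2% against 36.7% and 41.0%, and Dnmt3a between 6.88% and 8.54%.

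For maintenance methylation, Dnmt1 (chr9:20711650-20757317, minus strand) had 2556 and 1648 normalized counts in serum/-LIF and 3268 and 3310 with Royalactin. The Royalactin libraries were nearly equal, and the serum/-LIF libraries were both lower and further apart. On the log2 scale it was 0.68 higher with Royalactin, with a 95% confidence interval of 0.02 to 1.34 that just excludes 0, and it did not pass the adjustment (Benjamini-Hochberg adjusted p = 0.518 by limma). The difference ranged from 0.36 without serum/-LIF replicate 2 to 1.00 without serum/-LIF replicate 1.

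Uhrf1 (chr17:56442744-56462909, plus strand) followed the same order of libraries, with 3169 and 2096 normalized counts in serum/-LIF and 3658 and 3888 with Royalactin. Its log2 fold change was 0.55, with a 95% confidence interval of -0.11 to 1.21 (Benjamini-Hochberg adjusted p = 0.634 by limma), and it went from 0.25 without serum/-LIF replicate 2 to 0.85 without serum/-LIF replicate 1. The log2 ratio of Uhrf1 to Dnmt1 was 0.31 and 0.35 in serum/-LIF and 0.16 and 0.23 with Royalactin. The conditions did not overlap, and the difference of -0.13 was the smallest of the 9 pairs compared. Of the 75-base tiles of the Uhrf1 transcript 59.5% matched another place with up to 2 mismatches and 17.8% were identical there, mostly the pseudogene Gm5648 at chrX:118447608-118450185. The next stretch, Uhrf1 at chr17:56452484-56452558 (plus strand) and the second place at chrX:118449971-118450045 (minus strand), carries the bases that differ in capitals.
Uhrf1: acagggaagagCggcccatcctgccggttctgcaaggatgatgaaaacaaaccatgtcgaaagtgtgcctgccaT
Second place: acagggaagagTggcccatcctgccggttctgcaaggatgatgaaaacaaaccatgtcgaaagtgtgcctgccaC
The Uhrf1 counts are therefore uncertain.

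Uhrf2 (chr19:30105003-30168212, plus strand), a relative of Uhrf1 that does not replace it in keeping methylation, had 669 and 579 normalized counts in serum/-LIF and 588 and 678 with Royalactin. The libraries of both conditions spanned the same range. Its log2 fold change was 0.02 with a 95% confidence interval of -0.67 to 0.71 (Benjamini-Hochberg adjusted p = 0.991 by limma). The log2 ratio of Uhrf1 to Uhrf2 was 2.24 and 1.86 in serum/-LIF and 2.63 and 2.52 with Royalactin.

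Tdg (chr10:82092573-82113544, plus strand) was the lowest member, with 4.01 and 59.0 normalized counts in serum/-LIF and 10.1 and 2.75 with Royalactin. These rest on 3, 57, 10 and 4 reads, and serum/-LIF replicate 2 alone lifted the gene over the limit for testing. The log2 fold change of -1.43 had a standard error of 1.68 (Benjamini-Hochberg adjusted p = 0.845 by limma) and was 0.36 without serum/-LIF replicate 2. The log2 ratio of Tdg to Tet1 was -9.72 and -5.62 in serum/-LIF and -9.85 and -10.69 with Royalactin, a difference of -2.60 that was -0.55 without serum/-LIF replicate 2. Of the 75-base tiles of its transcript 85.6% matched another place with up to 2 mismatches, 73.5% were identical there, and of its coding tiles 100% had such a match. The main places were chr7:83388070-83391004, chr15:82346720-82349714, chr10:41772359-41775242 and chr19:33746770-33748527, which took 82.1%, 76.7%, 74.6% and 45.3% of the tiles. The stretch below is coding sequence of Tdg at chr10:82104060-82104134 (plus strand) and is the same, base for base, at chr10:41774912-41774986 (minus strand), chr15:82347040-82347114 (plus strand) and chr7:83390625-83390699 (minus strand).
Tdg and 3 other places: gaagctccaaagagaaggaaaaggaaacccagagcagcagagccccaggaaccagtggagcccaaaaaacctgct
A further 367 of its exon bases overlap Glt8d2 on the opposite strand. The values of Tdg are therefore uncertain, and no direction was read from them.

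**Figure D4:**
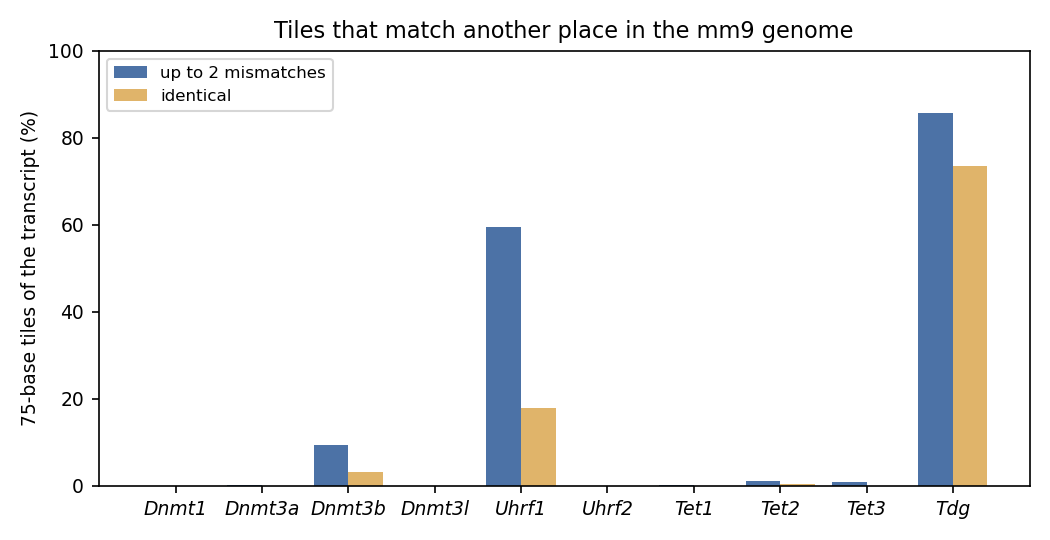
Share of 75-base tiles of the longest coding transcript (y axis, percent) of each gene (x axis) that match another place in the mm9 genome with up to 2 mismatches (blue) or identically (yellow). Tdg has 85.6% and 73.5%, Uhrf1 59.5% and 17.8%, Dnmt3b 9.3% and 3.1%, and the other 7 genes at most 1%.

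By level per kilobase of exon, the order in serum/-LIF was Dnmt3b (2433 ± 510, SD, n = 2), Uhrf1 (618 ± 178), Dnmt3l (450 ± 35.7), Dnmt1 (399 ± 122), Tet1 (244 ± 61.8), Dnmt3a (169 ± 4.32), Uhrf2 (72.6 ± 7.41), Tet2 (44.6 ± 1.46), Tet3 (12.4 ± 5.14) and Tdg (5.86 ± 7.24). Neighbours whose replicates overlapped were Dnmt3l with Dnmt1 and Tet3 with Tdg. With Royalactin the order was Dnmt3b (1766 ± 60.5, SD, n = 2), Dnmt3l (933 ± 84.4), Uhrf1 (886 ± 38.1), Dnmt1 (625 ± 5.68), Tet1 (557 ± 194), Tet2 (234 ± 47.2), Dnmt3a (186 ± 11.1), Uhrf2 (73.7 ± 7.38), Tet3 (8.78 ± 4.52) and Tdg (1.19 ± 0.961). Here Dnmt3l overlapped with Uhrf1, and Dnmt1 with Tet1. Tet2 stood 8th of the 10 in serum/-LIF, below Dnmt3a and Uhrf2, and 6th with Royalactin, above both. With the longest transcript in place of all exons Tet2 stayed below Dnmt3a in both conditions and passed Uhrf2 with Royalactin. The places of Uhrf1 and Tdg in both orders are uncertain, since 59.5% and 85.6% of their tiles matched another place in the genome.

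Other genes of the pathway were taken from 8 lists with 72 symbols, which name 71 genes since Nsd2 and Whsc1 are the same gene, and 69 were tested. Of these, 2 rose with an adjusted p under 0.05 and 0 fell (limma, Benjamini-Hochberg), against 0.331% and 0.162% of all tested genes, and 7 rose and 4 fell by the study's limits, against 3.52% and 3.61%. Both Royalactin libraries were above both others for 26 and below them for 12, against 19.7% and 18.9% of all tested genes, where 26 is 37.7% and 12 is 17.4% of the lists. The lists too were chosen with earlier results known, so these shares are for scale only. The genes that passed the adjustment were Zfp57, a zinc finger protein that guards the methylation of imprinted regions, and Tcl1, a cofactor of Akt that has been described as binding Dnmt3a. Zfp57 had 425 and 471 normalized counts in serum/-LIF and 1547 and 1569 with Royalactin, 1.80 higher on the log2 scale (standard error 0.30, Benjamini-Hochberg adjusted p = 0.0184 by limma). In its list of 3 it was also the gene that met the study's limits. Its partner Trim28 had 10914 and 6323 against 13229 and 15198, a log2 difference of 0.77 (Benjamini-Hochberg adjusted p = 0.527 by limma). Tcl1 had 13.4 and 14.5 normalized counts against 219 and 198, which is 3.81 higher on the log2 scale (standard error 0.68, Benjamini-Hochberg adjusted p = 0.0261 by limma). It did not pass with a pseudocount of 0.1 or over every gene with a value above 0, and like Tet2 neither gene passed without the trend of the variance or without any one library.

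**Figure D5:**
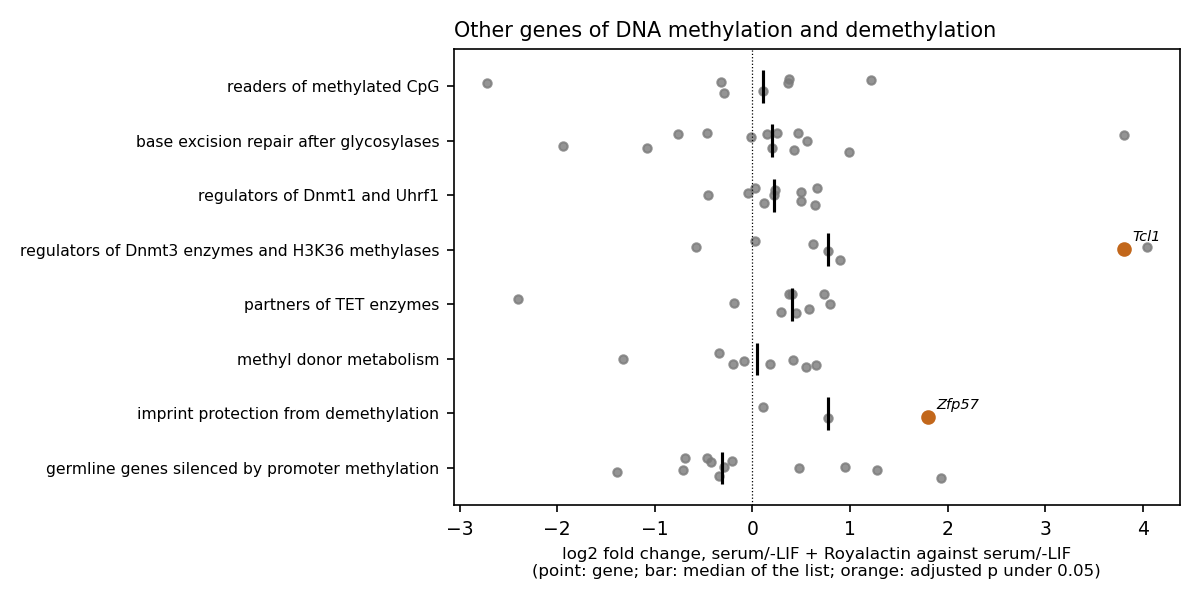
Log2 fold change, serum/-LIF + Royalactin against serum/-LIF (x axis), of the tested genes of 8 lists of the DNA methylation pathway (y axis), with a point per gene, a bar at the median of each list and orange for an adjusted p under 0.05. The medians run from -0.31 for germline genes to 0.77 for the regulators of Dnmt3 enzymes and for imprint protection, and the orange points are Tcl1 and Zfp57.

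Over all tested genes 0.493% passed the adjustment, and 3.52% rose and 3.61% fell by the study's limits, which is the scale for each list that follows. Among 7 tested regulators of Dnmt3 enzymes and writers of the H3K36 methylation that Dnmt3 proteins bind, 1 passed, 2 rose and 0 fell by the study's limits, and the median was 0.77. Prdm14, described as a repressor of Dnmt3 genes in ground-state cells, had 13.4 and 1.04 normalized counts in serum/-LIF and 63.4 and 123 with Royalactin. Its log2 fold change of 4.04, the largest of all 69, rests on 1 read in serum/-LIF replicate 2, depends on the pseudocount and was not past the threshold (standard error 1.19, Benjamini-Hochberg adjusted p = 0.22 by limma). The lowest of this list was Whsc1, with -0.58. Among 10 regulators of Dnmt1 and Uhrf1, 0 passed, 0 met the study's limits and the median was 0.22. They ran from -0.45 for Pcna, the replication clamp, to 0.66 for the H3K9 methyltransferase Ehmt2. Of 9 partners of TET enzymes 0 passed, 0 rose and 1 fell by the study's limits, and the median was 0.41. Idh2, an enzyme that makes the cosubstrate of TET proteins, had the highest log2 fold change with 0.80 and Cxxc4, which binds Tet2, the lowest with -2.40 (Benjamini-Hochberg adjusted p = 0.528 by limma). Cxxc4 had 54.8 and 36.2 normalized counts in serum/-LIF and 7.04 and 8.26 with Royalactin, 7 or more reads in each library.

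In base excision repair 0 of 13 passed, 1 rose and 1 fell by the study's limits, and the median was 0.20. The shares of all tested genes, 0.493%, 3.52% and 3.61%, are again the scale for this and the next lists. The extremes were Neil1, a glycosylase, with 9.36 and 0 against 36.2 and 53.7 normalized counts and a log2 fold change of 3.81 that depends on the pseudocount, and Gadd45b, a stress-induced factor, with 235 and 215 against 34.2 and 97.1 a log2 difference of -1.94 (Benjamini-Hochberg adjusted p = 0.233 by limma). Of 7 readers of methylated CpG 0 passed, 1 rose and 1 fell by the study's limits, and the median was 0.11, from -2.72 for Zbtb4 to 1.22 for Zbtb38. Zbtb4 had 26.7 and 61.1 normalized counts in serum/-LIF and 4.02 and 6.88 with Royalactin. Its value rests on as few as 4 reads in a library and has a standard error of 1.24. Of 8 genes of methyl donor metabolism 0 passed, 0 met the study's limits and the median was 0.04, from -1.33 for Gnmt to 0.65 for the methionine synthase Mtr. The Gnmt value rests on as few as 9 reads in a library and has a standard error of 1.13. Germline genes known to be silenced by promoter methylation gave 0 of 12 passes, with 2 that rose and 1 that fell by the study's limits, and a median of -0.31. In this list Stk31 was highest, with 25.4 and 61.1 normalized counts against 174 and 136 a log2 difference of 1.93 (Benjamini-Hochberg adjusted p = 0.306 by limma), and Sycp3 lowest, with 203 and 615 against 136 and 132 a log2 difference of -1.39 (Benjamini-Hochberg adjusted p = 0.38 by limma). Asz1 had 0 reads in all 4 libraries, which allows up to 3 reads in each by counting error.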

How the data were processed

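RNA-seq of J1 cells was used, 2 libraries per condition, with groups and replicate numbers from the sample labels, which match the column names. Alignment by the authors was to mm9 with TopHat, and gene counts came from HTSeq-count. The authors deposited DESeq-normalized counts, a signal proportional to reads. All 4 columns were mapped. Every value is a whole multiple of one step per library to within 0.01 of a read, but one Royalactin library has a step of 1.01, so close to 1 that code could not check the recovery of reads, and no test on reads was made. Strand setting and counting annotation are not given in the sources used here.

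limma 3.58.1 (R 4.3.3), with a mean-variance trend, gave two-sided tests of log2(normalized count + 1) for genes averaging at least 10, and the Benjamini-Hochberg adjustment covered all of these. The steps were tested on simulated data. Members and lists were chosen with earlier results of these data known. Named are all 10 members and, of each list, the genes that passed, otherwise its largest rise and fall. Prdm14, Whsc1, Trim28 and Asz1 were named after their values were seen. The series' text calls the replicates biological duplicates. Deviations of same-numbered libraries correlated across genes with r = 0.0851 (Pearson), and the labels name no shared batch. Positions and exon lengths come from GENCODE M1 on the same build, and promoters from RefSeq (GRCm38.p6), where all 10 members matched. Tiles of 75 bases, every 5 bases of each member's longest coding transcript, were compared with the whole genome on both strands. Alternatives, 15 in all, were other pseudocounts (0.1 and 5), filters and scalings, the replicate block, no variance trend, a lowess correction (span 0.3) for GC content and length, and each library left out.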

Additional observations from a re-analysis of the deposited data

How the results depend on the processing

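By limma, 64 genes had a Benjamini-Hochberg adjusted p under 0.05 as reported. This became 32 with a pseudocount of 0.1, 34 over every gene with a value above 0, 99 at a mean of at least 50, 391 with the replicate number as a block, 247 with the correction for GC content and length, 785 with both, and 0 without the variance trend, where 1135 had an unadjusted p under 0.05. With each library left out it was 0 each time, with 428 to 2496 genes at an unadjusted p under 0.05 and 427 to 1925 meeting the study's limits (927 as reported), most without serum/-LIF replicate 1. In those fits one condition has a single library, assumed to vary like the other.

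Of the members, 3 passed (Tet1, Tet2 and Dnmt3l) with the replicate block, with the GC and length correction and with both, against 1 as reported, and 0 without the trend or any one library, with 2 to 6 at an unadjusted p under 0.05. The replicate block gave limma adjusted p-values of 6.51e-12 for Tet2, 0.00177 for Tet1 and 0.00953 for Dnmt3l. For Tet2 the estimate and standard error were 2.37 and 0.30 with the block, against 2.37 and 0.31 as reported. Its far smaller p-value therefore rests on variance that limma pools over genes, and does not measure the spread of the Tet2 replicates. The replicate numbers pair no known batch. Of the other pathway genes, 2 as reported, 1 passed with a pseudocount of 0.1 and over every gene above 0, 5 with the block, 12 with the block and the correction, and 0 without the trend (9 at an unadjusted p under 0.05) or any one library (3 to 24), and 3 to 18 met the study's limits with one library left out, against 11. The cause was not tested.

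Left-out libraries turned the sign of 3 uncalled members, with ranges of -0.08 to 0.13 for Uhrf2, -1.07 to 0.01 for Tet3 and -3.22 to 0.36 for Tdg. Tdg could not be fitted at a mean of at least 50. The log2 fold change of Tet2 stayed between 2.17 and 2.58. The difference in the log2 ratio of Tdg to Tet1, -2.60 as reported, was -0.55 without serum/-LIF replicate 2 and -4.65 without serum/-LIF replicate 1. With the longest transcript as length, 6 of 10 members kept their place in the serum/-LIF order. Tdg rests on 3 to 57 reads and Tet3 on 90 to 133 in each library.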
